A study of Mus musculus with 24 samples.

Results

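Arid3c, Lmo3, Maf, Gbx1, Minar2, Ptprz1, Shisa2, Tmtc2, Slc38a8 and Edn1, genes seldom named among those of the early eye, were followed through the formation of the eye field in mouse optic vesicle (OV) organoids. They are 10 of the 49705 gene entries of the RNA-seq table, and all 10 were among the 21005 entries with enough signal to be tested. They were chosen by name because their level went up as the eye field formed and was higher in the GFP-positive gate. The values that chose them, day 3 against day 4 GFP-positive cells and the gates of days 4 and 5, are therefore given as a description without a test. Tests are given for the other steps of the course, several of which share libraries with those contrasts.

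The organoids were grown from the Rx-GFP K/I EB5 line of mouse embryonic stem cells, in which GFP knocked in at Rax reports this eye-field gene. Every group carries this reporter and received no further treatment: 4500 cells were aggregated per organoid on day 0, and 2% Matrigel was added on day 1. The labels name GMEM with 1.5% KOSR as the medium, whereas the study's text describes a chemically defined medium for its first organoids. The 24 libraries form 8 groups of 3 replicates, which are live single cells of days 0, 1, 2 and 3 and GFP-negative and GFP-positive cells of days 4 and 5. Each replicate pooled 24 organoids of 1 cell line, so that p-values measure the spread between pools and not between lines. Cells of low GFP were sorted into the GFP-negative gate, which is therefore not free of Rax-expressing cells.

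The eye field is the single domain of the anterior neural plate from which both optic vesicles, and later the retina and pigmented epithelium, are formed. A set of transcription factors specifies it, among them Six3, Six6, Lhx2, Pax6 and Rax. The 10 genes belong to other families: 4 act in the control of transcription, 3 in signalling at or on the way to the cell surface, and 3 in transport or membrane biology.

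Values are normalized counts, in which 1 read was worth about 0.80 to 1.39 depending on the library. Totals per library lay between 39849111 and 51587535 normalized counts, or an estimated 37100000 to 54500000 reads. The first day 0 library stood apart from its replicates, with rank correlations of 0.954 and 0.953 to the other libraries of that day, which had 0.988 with each other, and the lowest within any other group was 0.979. The labelled populations carried their defining markers: the summed level of 5 eye-field genes was 45893 to 57307 in the GFP-positive libraries and 8351 to 10833 in the GFP-negative libraries. The summed level of 4 pluripotency genes was 116285 to 166086 on day 0 and 280 to 367 in day 5 GFP-positive cells. Differences are given on the scale log2(normalized count + 1), which understates the change of low genes, with a standard error (SE) from limma over 3 libraries per group and a Benjamini-Hochberg adjusted p. A gene was called where the adjusted p was under 0.001 and the difference exceeded 1.5, the thresholds of the study. Group means are given ± the SD of their 3 libraries (n = 3). Levels are compared within a gene and not between genes, since they are not scaled by length.

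**Figure D1:**
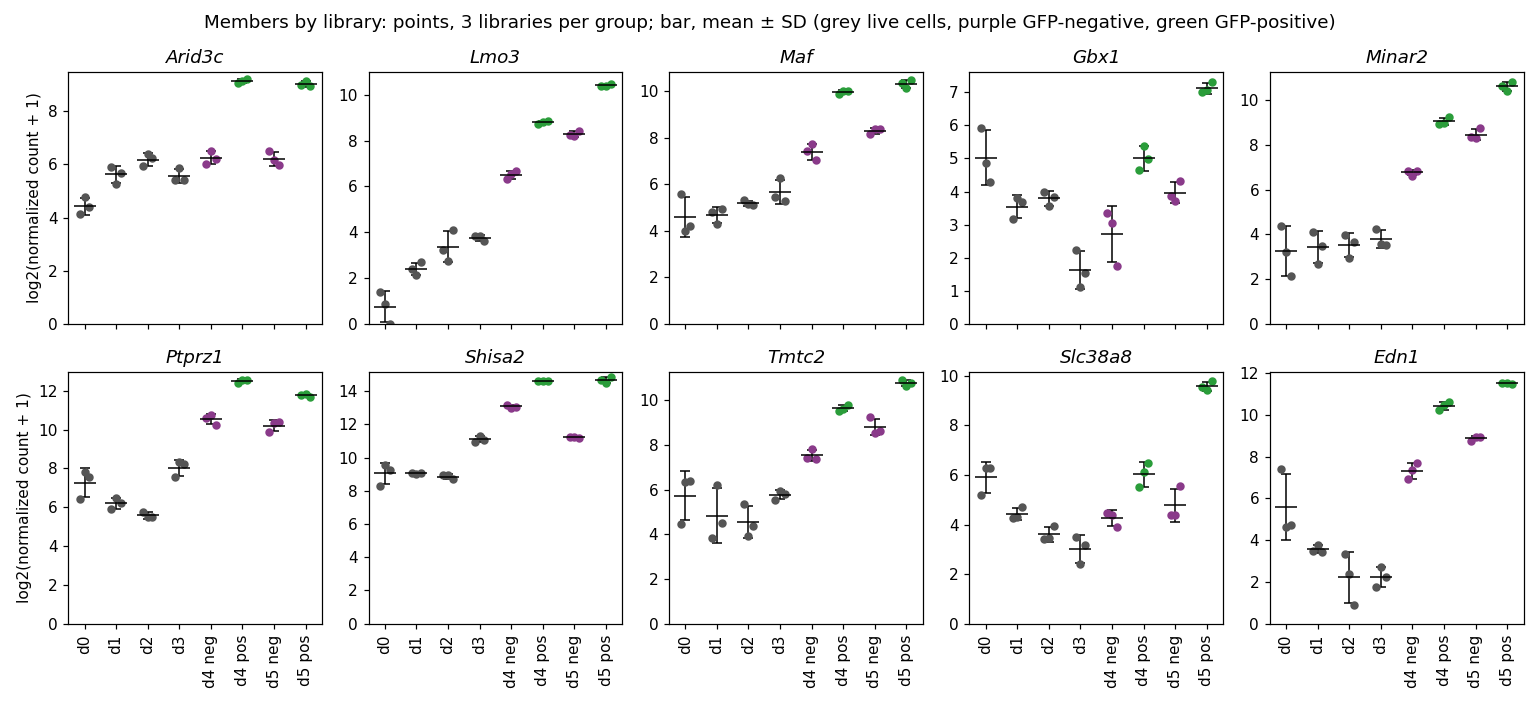
Level of each of the 10 genes in every library, as log2(normalized count + 1) on the vertical axis, against the 8 groups on the horizontal axis. Points are the 3 libraries of a group and bars are the mean ± SD. In every panel the green GFP-positive libraries of a day lie above the purple GFP-negative libraries of that day. Gbx1 and Slc38a8 dip to their lowest mean on day 3, and Edn1 is lowest on days 2 and 3 (log2 means of 2.22 and 2.26).

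Homeodomain and Sox proteins of the eye field bind short motifs in DNA. The 250 bases before the annotated start of each gene were searched on both strands for TAATTA and TAATTG, the core sites of Rax and Lhx2, for TAATCC, the site bound by Otx2, and for ACAATG, a core Sox motif. RefSeq (build GRCm38.p6) gave such a window for 7 of the 10 genes, namely Arid3c, Ptprz1, Lmo3, Slc38a8, Tmtc2, Edn1 and Shisa2. For Ptprz1 and Lmo3 the RefSeq gene reached into the window, and 171 of the 250 bases of the Tmtc2 window lay in exons of Gm15663. Only the Edn1 window held any of the motifs, 1 TAATTG whose first base lay 227 bases before the start. Of 32851 promoter windows of the same length, 4.84% held TAATTA, 7.17% TAATTG, 6.25% TAATCC and 10.7% ACAATG. The windows of Edn1, Slc38a8 and Shisa2 are printed 5′ to 3′ on the strand of the gene, because these 3 genes had the largest difference from day 3 to day 4 GFP-positive cells, the largest between the day 5 gates and the called fall in GFP-negative cells from day 4 to day 5, and capitals mark the TAATTG.
Edn1, chr13:42301226-42301475, plus strand: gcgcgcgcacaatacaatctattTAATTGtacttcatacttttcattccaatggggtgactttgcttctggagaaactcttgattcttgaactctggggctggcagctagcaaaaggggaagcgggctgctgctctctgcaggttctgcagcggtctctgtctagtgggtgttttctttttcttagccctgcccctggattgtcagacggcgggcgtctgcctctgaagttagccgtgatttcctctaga
Slc38a8, chr8:119501699-119501948, minus strand: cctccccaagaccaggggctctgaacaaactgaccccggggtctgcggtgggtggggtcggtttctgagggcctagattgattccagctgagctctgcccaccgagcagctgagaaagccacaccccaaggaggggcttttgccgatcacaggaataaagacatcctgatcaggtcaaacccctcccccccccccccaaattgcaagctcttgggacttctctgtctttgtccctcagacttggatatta
Shisa2, chr14:59625031-59625280, plus strand: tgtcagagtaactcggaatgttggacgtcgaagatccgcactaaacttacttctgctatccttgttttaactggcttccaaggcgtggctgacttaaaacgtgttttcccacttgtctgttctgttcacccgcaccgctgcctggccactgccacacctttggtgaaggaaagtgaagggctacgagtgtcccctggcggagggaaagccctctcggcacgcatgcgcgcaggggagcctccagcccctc
The share of G and C was 50.4% in the Edn1 window, 57.2% in that of Slc38a8 and 56% in that of Shisa2. A match in such a window is a description of its letters and not a binding site.

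Of the 10 genes, 8 had their highest mean in day 5 GFP-positive cells, and for 7 of these the libraries lay above those of every other group. The exceptions were Arid3c and Ptprz1, which were highest in day 4 GFP-positive cells. The lowest mean normalized count fell on day 0 for 3 genes, on day 1 for 1 gene, on day 2 for 3 genes and on day 3 for 3 genes. The libraries of that lowest group were separate from the next group for Arid3c, Lmo3, Ptprz1 and Shisa2 and overlapped it for the other 6 genes.

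Among the regulators of transcription, Lmo3 had the steadiest climb. Lmo3 (chromosome 6, 138362918 to 138581968, minus strand) encodes a LIM-domain protein that binds other transcription factors rather than DNA. Lmo3 stood at 1.59, 0.83 and 0 on day 0, 4.17, 3.35 and 5.39 on day 1, 8.28, 5.76 and 16.1 on day 2 and 13.0, 13.1 and 11.2 on day 3. Lmo3 was at 78.3, 91.7 and 101 in GFP-negative and at 423, 447 and 459 in GFP-positive cells of day 4, and at 302, 294 and 345 and 1322, 1328 and 1421 in those of day 5. Each group lay above the one before it in time up to day 3, with an overlap between days 2 and 3 alone, and on days 4 and 5 the gates did not overlap. From day 0 to day 3 Lmo3 rose by a log2 difference of 3.00 (SE 0.31, limma adjusted p = 9.67e-08), a comparison added after the values were seen. Because the day 0 libraries hold so few reads, this size depends on the pseudocount, from 1.59 with 5 to 3.53 with 0.5. In GFP-negative cells of day 4 it was higher than on day 3 by 2.76 (SE 0.31, limma adjusted p = 1.62e-06).

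Maf (chromosome 8, 115682942 to 115707794, minus strand) encodes a large basic leucine zipper factor best known for its part in lens fibre differentiation. Maf stood at 46.3, 15.1 and 17.4 on day 0, 26.7, 18.7 and 29.7 on day 1, 38.5, 34.4 and 33.2 on day 2 and 42.8, 75.9 and 38.1 on day 3. Maf was at 169, 211 and 131 in GFP-negative and at 929, 1037 and 1023 in GFP-positive cells of day 4, and at 282, 331 and 333 and 1296, 1115 and 1428 in those of day 5. The scattered day 0 libraries overlapped those of days 1 to 3, day 1 lay below days 2 and 3, and both gates then lay above them all. The GFP-negative cells of day 4 exceeded day 3 by 1.73 (SE 0.31, limma adjusted p = 0.000407). That call was lost in 4 of the 6 fits that left out a day 3 or a day 4 GFP-negative library, with values between 1.54 and 2.02. The summed level of 4 lens markers was 365 to 400.5 in day 4 GFP-positive and 370 to 500 in day 4 GFP-negative libraries, and on day 5 it was 1184 to 1269 against 795 to 860. Most of the sum in day 5 GFP-positive cells came from Prox1 (1130 ± 56.5). There Foxe3, a factor of the early lens, stood at 54.0 ± 10.4 against 17.1 ± 2.17 in the GFP-negative gate, and the lens crystallin Cryaa was at 0 in every library, as it was in both gates of day 4. Another crystallin gene, Cryab, was lower in the GFP-positive gate, at 37.1 ± 12.6 on day 5 against 219.8 ± 68.9, and at 16.0 ± 5.08 on day 4 against 99.9 ± 36.3. The part of lens-like RNA in the level of Maf was not tested.

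Arid3c (chromosome 4, 41723836 to 41731142, minus strand) encodes a DNA-binding protein with an AT-rich interaction domain. Arid3c stood at 16.5, 26.2 and 19.8 on day 0, 59.1, 37.9 and 50.1 on day 1, 59.8, 83.1 and 74.5 on day 2 and 41.4, 57.9 and 41.2 on day 3. Arid3c was at 64.4, 90.4 and 73.3 in GFP-negative and at 537, 567 and 601 in GFP-positive cells of day 4, and at 90.1, 71.1 and 62.5 and 509.6, 567 and 496 in those of day 5. Its libraries were split into a low set, which holds days 0 to 3 and both GFP-negative groups, and a high set made up of the 6 GFP-positive libraries. No tested step passed both thresholds for Arid3c. The difference between day 3 and day 4 GFP-negative cells was 0.69 (SE 0.22, limma adjusted p = 0.0300), and that between the GFP-positive cells of days 4 and 5 was -0.12 (SE 0.22, limma adjusted p = 0.872). The day 0 to day 1 difference of 1.20 (SE 0.22, limma adjusted p = 0.000985) passed the p threshold and not the size.

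Gbx1 (chromosome 5, 24502757 to 24527202, minus strand) is a gastrulation brain homeobox gene, whose paralogue Gbx2 is a regulator of the anterior hindbrain. Gbx1 stood at 60.0, 27.8 and 18.6 on day 0, 7.90, 12.8 and 11.9 on day 1, 14.9, 10.7 and 13.2 on day 2 and 3.67, 1.14 and 1.90 on day 3. Gbx1 was at 9.15, 7.32 and 2.34 in GFP-negative and at 23.9, 40.3 and 30.9 in GFP-positive cells of day 4, and at 13.4, 12.1 and 18.9 and 127, 132 and 157 in those of day 5. It was present on day 0, reached 1.1 to 3.7 on day 3 and returned in GFP-positive cells, where the day 5 libraries were the highest of the series. Between day 0 and day 3 it fell by 3.41 (SE 0.43, limma adjusted p = 1.49e-06), or by 2.95 without the first day 0 library. The day 4 GFP-positive libraries (23.9 to 40.3) overlapped those of day 0 (18.6 to 60.0). The difference between day 4 and day 5 GFP-positive cells was 2.12 (SE 0.43, limma adjusted p = 0.00198), which missed the p threshold and passed it without the first day 0 library (adjusted p = 0.000506).

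Of the signalling genes, Edn1 (chromosome 13, 42301476 to 42307990, plus strand) encodes the precursor of endothelin 1, a secreted peptide that acts through the receptors Ednra and Ednrb and is best known from blood vessels and from the neural crest of the jaw. Edn1 stood at 167, 24.0 and 25.7 on day 0, 10.2, 12.9 and 9.77 on day 1, 9.18, 4.28 and 0.88 on day 2 and 2.44, 5.67 and 3.79 on day 3. Edn1 was at 121, 164 and 206 in GFP-negative and at 1223, 1406 and 1576 in GFP-positive cells of day 4, and at 438, 500.2 and 493 and 2944, 2940.1 and 2858 in those of day 5. A high value in the first day 0 library set it apart from its replicates, and from day 1 to day 3 the libraries ranged from 0.88 to 12.9. The difference from day 0 to day 3 was -3.33 (SE 0.55, limma adjusted p = 4.38e-05), and -2.43 without the first day 0 library. Edn1 then rose in GFP-negative cells of day 4 by 5.07 (SE 0.55, limma adjusted p = 1.11e-06), with 4.21 under a pseudocount of 5. In GFP-positive cells of day 4 its mean was 353 times that of day 3, where each library held only a few reads.

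Markers of blood vessel cells had a lower summed level in the gate where Edn1 was higher, and within the GFP-positive gate the sum was higher on day 5, as Edn1 was. The summed level of 5 endothelial markers was 131 to 254 in day 4 GFP-positive libraries and 949 to 1804 in day 4 GFP-negative libraries. On day 5 it was 726 to 893 in GFP-positive and 1402 to 2079 in GFP-negative libraries, the reverse of the order of Edn1. Cdh5, a defining cadherin of endothelium, stood at 6.04 ± 4.41 in GFP-positive cells of day 4 and 6.81 ± 1.35 in those of day 5. Emcn stood at 1.98 ± 2.13 and 0.683 ± 1.18, and on day 4 its mean in the GFP-negative gate was 0.798 ± 0.780. None of the 5 markers was at 0 in all 3 of these libraries, and Kdr made up most of the sum in these cells, with 693 ± 69.9 against 101 ± 56.1 on day 4. The part of vessel cells in the level of Edn1 was not tested.

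Ptprz1 (chromosome 6, 22875502 to 23052916, plus strand) encodes a receptor tyrosine phosphatase of neural progenitors whose ligand is pleiotrophin. Ptprz1 stood at 84.6, 223 and 186 on day 0, 59.6, 88.4 and 74.3 on day 1, 53.3, 43.8 and 43.9 on day 2 and 187, 319 and 298 on day 3. Ptprz1 was at 1575, 1728 and 1212 in GFP-negative and at 5308, 6115 and 5992 in GFP-positive cells of day 4, and at 942, 1277 and 1336 and 3509, 3637 and 3309 in those of day 5. Its lowest libraries were those of day 2, and it was already higher on day 3. It rose from day 2 to day 3 by 2.45 (SE 0.27, limma adjusted p = 3.71e-06) and from day 3 to day 4 GFP-negative cells by 2.51 (SE 0.27, limma adjusted p = 8.28e-07). The day 5 GFP-positive libraries all lay below those of day 4, and the difference of -0.73 (SE 0.27, limma adjusted p = 0.0951) did not pass the test.

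Shisa2 (chromosome 14, 59625308 to 59631660, plus strand) encodes a protein of the endoplasmic reticulum that holds back the maturation of Fgf receptors and of the Wnt receptor Frizzled. Shisa2 stood at 317, 764 and 603 on day 0, 542, 514 and 531 on day 1, 486, 493 and 413 on day 2 and 1974, 2557 and 2121 on day 3. Shisa2 was at 9195, 8196 and 8490.1 in GFP-negative and at 25196, 25136 and 25129 in GFP-positive cells of day 4, and at 2418, 2448 and 2317 and 25664, 23092 and 29039 in those of day 5. GFP-positive libraries of both days lay close together, while the GFP-negative libraries of day 5 were far below those of day 4 and overlapped day 3. Shisa2 rose from day 2 to day 3 by 2.25 (SE 0.20, limma adjusted p = 2.30e-07) and further in GFP-negative cells of day 4 by 1.97 (SE 0.20, limma adjusted p = 3.66e-07). From day 4 to day 5 it fell in GFP-negative cells by 1.85 (SE 0.20, limma adjusted p = 2.25e-06). In GFP-positive cells the corresponding difference was 0.04 (SE 0.20, limma adjusted p = 0.965).

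Slc38a8 (chromosome 8, 119479602 to 119501698, minus strand) encodes a glutamine transporter, and its loss in people is a known cause of foveal hypoplasia. Slc38a8 stood at 35.3, 75.8 and 76.4 on day 0, 18.0, 18.9 and 24.9 on day 1, 9.66, 10.0 and 14.4 on day 2 and 10.3, 4.26 and 7.99 on day 3. Slc38a8 was at 21.4, 19.8 and 13.8 in GFP-negative and at 44.2, 67.7 and 88.1 in GFP-positive cells of day 4, and at 19.8, 19.8 and 46.1 and 739, 689.6 and 884 in those of day 5. The level declined to day 3, and the day 4 GFP-positive libraries overlapped those of day 0, whereas the day 4 GFP-negative libraries lay below them. The day 5 GFP-positive libraries were separate from all others. Slc38a8 fell from day 0 to day 3 by 2.89 (SE 0.37, limma adjusted p = 2.07e-06) and rose from day 4 to day 5 in GFP-positive cells by 3.56 (SE 0.37, limma adjusted p = 1.43e-06), to 11.6 times the mean of day 4. In GFP-negative cells that step was 0.52 (SE 0.37, limma adjusted p = 0.448).

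Tmtc2 (chromosome 10, 105187663 to 105574451, minus strand) encodes an enzyme of the endoplasmic reticulum that adds mannose to cadherins. Tmtc2 stood at 21.1, 81.4 and 82.2 on day 0, 13.3, 73.2 and 21.5 on day 1, 39.9, 14.2 and 20.1 on day 2 and 46.3, 61.5 and 55.7 on day 3. Tmtc2 was at 172, 223 and 165 in GFP-negative and at 743, 793 and 902 in GFP-positive cells of day 4, and at 604, 375 and 398 and 1922, 1587 and 1763 in those of day 5. Early libraries were scattered, from 13.3 to 82.2 over days 0 to 2, and both gates of day 4 lay above them. The difference between day 3 and day 4 GFP-negative cells was 1.76 (SE 0.49, limma adjusted p = 0.0145), and no tested step of Tmtc2 passed the test.

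Minar2 encodes a membrane protein, the paralogue of Minar1. Minar2 stood at 19.6, 8.31 and 3.36 on day 0, 16.3, 5.47 and 10.3 on day 1, 14.6, 6.67 and 11.7 on day 2 and 17.8, 11.0 and 10.4 on day 3. Minar2 was at 115, 97.8 and 113 in GFP-negative and at 498, 510.3 and 602 in GFP-positive cells of day 4, and at 327, 315 and 428 and 1593, 1356 and 1824 in those of day 5. The groups of days 0 to 3 overlapped at 3.4 to 19.6, and each later group lay above the last when they are ordered as day 4 GFP-negative, day 5 GFP-negative, day 4 GFP-positive and day 5 GFP-positive. Minar2 rose from day 3 to day 4 GFP-negative cells by 2.99 (SE 0.41, limma adjusted p = 2.11e-05). From day 4 to day 5 its differences were 1.70 (SE 0.41, limma adjusted p = 0.0100) in GFP-negative and 1.56 (SE 0.41, limma adjusted p = 0.0170) in GFP-positive cells, and neither was called.

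**Figure D2:**
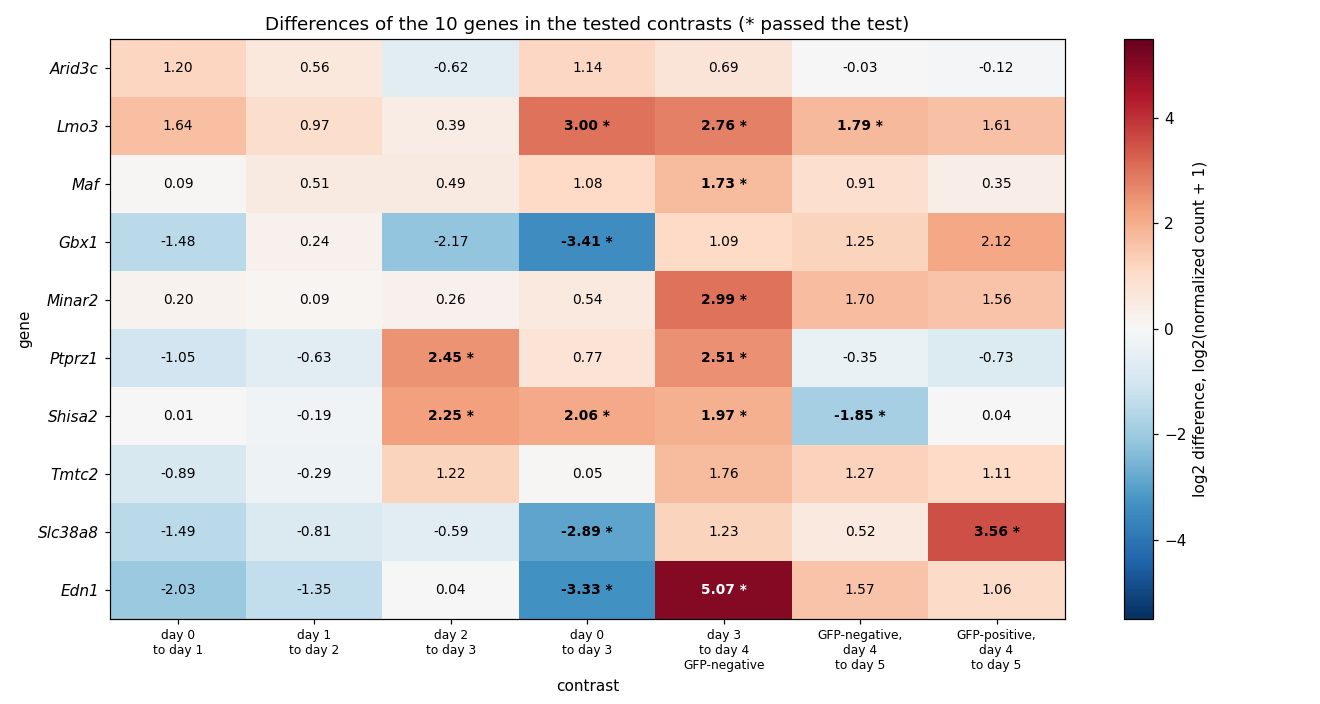
Log2 differences, on the log2(normalized count + 1) scale of the colour bar, for the 10 genes in rows and 7 contrasts in columns; bold values with an asterisk passed the test. From day 3 to day 4 GFP-negative cells 6 genes rose, against 2.00% of all genes tested. From day 0 to day 3, 2 genes rose, against 5.91%, and 3 fell, against 6.12%. These contrasts share groups with those that chose the genes.

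Few of the early steps passed the test in these genes. None of the 10 was called by limma from day 0 to day 1, where 0.738% of all genes tested were called in either direction, and 6 had an unadjusted p under 0.05, as did 22.5% of all genes. None was called from day 1 to day 2 either, against 1.47% of all genes, and 5 had an unadjusted p under 0.05, as did 28.2% of all genes. From day 2 to day 3 Ptprz1 and Shisa2 were called higher, 2 of 10 against 0.714% of all genes, and without the first day 0 library Gbx1 was also called, as lower (-2.17, limma adjusted p = 0.000351, against 0.00167 with it). The added comparison of day 0 with day 3 gave 2 genes higher, against 5.91% of all genes, and 3 lower, against 6.12%. The 3 that fell, Gbx1, Slc38a8 and Edn1, are those whose lowest mean normalized count was on day 3. Day 3 is also the base of a contrast that chose the genes, so calls that end on day 3 are not independent of the choice. In a fit of only the groups compared, which has fewer libraries to estimate the spread, none of the 5 calls from day 0 to day 3 was kept. The limma adjusted p was 0.00610 for Lmo3, 0.00469 for Shisa2, 0.00539 for Gbx1, 0.00536 for Slc38a8 and 0.0206 for Edn1. Such fits also lost the call of Ptprz1 from day 2 to day 3 (limma adjusted p = 0.001015), of Maf from day 3 to day 4 GFP-negative cells (0.00971), and from day 4 to day 5 of Lmo3 in GFP-negative (0.00108) and Slc38a8 in GFP-positive cells (0.00160). They gained a call of Lmo3 in GFP-positive cells from day 4 to day 5 (1.61, limma adjusted p = 0.000386). Lmo3 from day 0 to day 1 was 1.64 (limma adjusted p = 0.00129) with all libraries and passed the test without the first day 0 library (1.95, limma adjusted p = 0.000164).

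Many of these transcripts were already higher in the GFP-negative cells of day 4. Lmo3, Maf, Minar2, Ptprz1, Shisa2 and Edn1 were called higher than on day 3, 6 of 10 against 2.00% of all genes, and the median difference of the 10 was 1.86 against -0.02 over all genes tested. This contrast was not itself used to choose the genes. It equals the difference from day 3 to day 4 GFP-positive cells minus that between the day 4 gates, and both of those chose the genes. The 6 calls and the median are therefore not independent of the choice. In a bulk sample of sorted cells, fewer cells with a transcript and less of it per cell cannot be told apart, and cells of low GFP belong to this gate.

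From day 4 to day 5 in GFP-negative cells, Lmo3 rose by 1.79 (SE 0.31, limma adjusted p = 0.000506), 1 of 10 against 0.762% of all genes. That call was lost in each of the 6 fits that left out a library of the groups compared, with values between 1.69 and 1.87. Shisa2 was the member that fell, 1 of 10 against 0.509% of all genes. In GFP-positive cells Slc38a8 was the 1 member called higher, against 0.595% of all genes. Lmo3, with 1.61 (SE 0.31, limma adjusted p = 0.00120), and Gbx1 were close to the threshold and passed it without the first day 0 library, which made 3 calls. The medians of the 10 were 1.08 in GFP-negative and 1.09 in GFP-positive cells, against 0.01 and 0.00 over all genes tested. Neither step was used to choose the genes, but the groups of both also stand in contrasts that were. The calls and medians are therefore not independent of the choice.

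In the values that chose them, all 10 genes exceeded a difference of 1.5 from day 3 to day 4 GFP-positive cells, between the day 4 gates and between the day 5 gates, and in each of these contrasts the libraries of the groups did not overlap. Under quantile normalization 9 of the 10 exceeded it between the day 4 gates, with Shisa2 at 1.49. Among all genes tested 5.17%, 1.29% and 1.08% exceeded that size in the higher direction, and nothing follows for these genes, which were picked for it. From day 3 to day 4 GFP-positive cells the differences ran from 3.01 for Slc38a8 to 8.19 for Edn1. Between the day 4 gates they ran from 1.55 for Shisa2, the member nearest to 1.5, to 3.12 for Edn1. Between the day 5 gates they ran from 1.57 for Ptprz1 to 4.81 for Slc38a8. The choice itself stated no threshold, so that no member lies just outside one.

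The level left in the GFP-negative gate differed among the members. On day 4 GFP-negative cells held between 11.7% (Edn1) and 34.3% (Shisa2) of the GFP-positive mean. Rax itself, which carries the reporter, stood at 10.2% on day 4 and 5.20% on day 5. For Arid3c the share was 13.4% on day 4 and 14.2% on day 5, for Lmo3 20.4% and 23.1%, for Minar2 20.2% and 22.4%, and for Tmtc2 23.0% and 26.1%. For Lmo3, Minar2 and Tmtc2 the day 5 mean of each gate was 2.16 to 3.47 times that of day 4, while the shares of the days lay close together. The share went up for Maf, from 17.1% to 24.6%, for Edn1, from 11.7% to 16.4%, and for Ptprz1, from 25.9% to 34.0%. For Shisa2 the share went from 34.3% to 9.23%, for Slc38a8 from 27.5% to 3.71% and for Gbx1 from 19.8% to 10.7%. The single GFP-negative libraries of Gbx1 ran from 7.39% to 28.9% on day 4, which includes their range of 8.68% to 13.6% on day 5, whereas those of Shisa2 and of Slc38a8 were separate between the days. Six6, a late eye-field factor, went from 18.7% to 3.21%. Lhx2, Six3 and Pax6 stood at 16.1%, 29.8% and 28.4% on day 4 and at 12.9%, 16.2% and 27.7% on day 5.

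On the log2 scale the gate difference of Shisa2 was 1.55 on day 4 and 3.43 on day 5, and that of Slc38a8 was 1.78 and 4.81. Both pairs are values by which the genes were chosen, so no test of the change between the days is given.

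**Figure D3:**
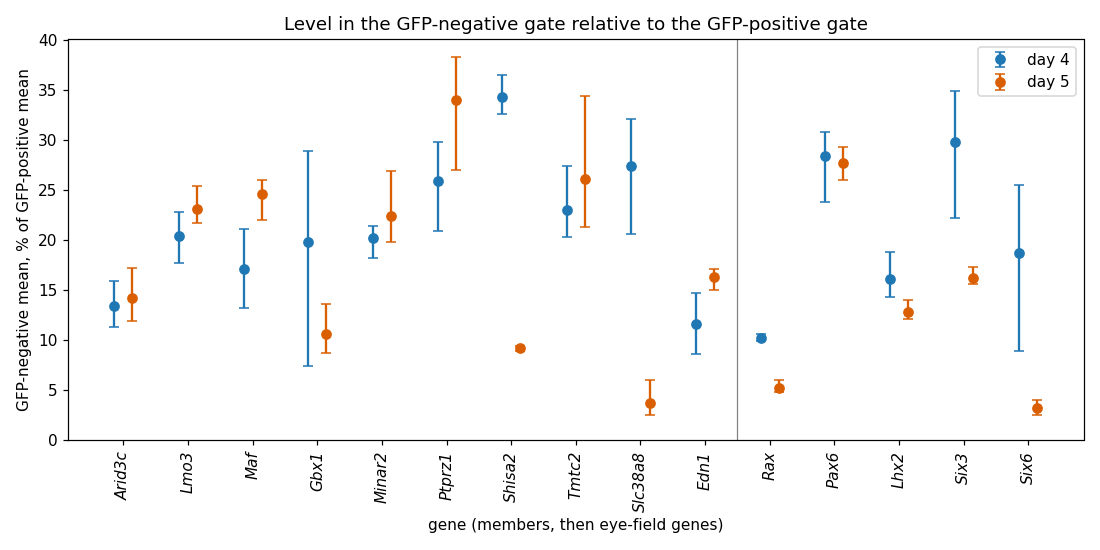
Mean of the GFP-negative libraries as a percentage of the mean of the GFP-positive libraries, on the vertical axis, for each of the 10 genes and 5 eye-field genes on the horizontal axis. Points are day 4 and day 5, and bars run from the lowest to the highest GFP-negative library over the GFP-positive mean; Shisa2 went from 34.3% to 9.23% and Slc38a8 from 27.5% to 3.71%, while Lmo3, Minar2 and Tmtc2 stayed at 20% to 26%.

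The genes most like each member over the 24 libraries were found by Pearson's r of log2 values, as a description, since all points share the same time course and gates. Among the 45 pairs of members r lay between 0.36 (Gbx1 and Shisa2) and 0.97, with a median of 0.85. Shisa2 was closest to Rax (r = 0.98), followed by Grem1, which encodes a secreted BMP antagonist, and Rasgef1b. Ptprz1 was closest to the co-repressor gene Tle1 (r = 0.99), Lhx2 (0.98) and Nptx1. Lmo3 followed Maob (0.99), Emid1 and Maged1, and Minar2 followed the imprinted gene Mest (0.98) and the nuclear receptor gene Nr2f1. Maf was nearest to Tspan3 (0.97), Pik3r3 and Olfml2b, Tmtc2 to Fhod3 (0.96), Elmo2 and Atp11a, and Edn1 to Dennd5a (0.97), Arf2 and Adamts9. Arid3c was nearest to Cep78 (0.94), Lman1 and Nrg1. The lowest likeness was that of Gbx1, to Rnf113a1 (0.88) and Gpr137, while Slc38a8 was nearest to Necab2 (0.93), Rnf113a1 and Asb8.

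Necab2, which encodes a neuronal calcium-binding protein, is also the neighbour of Slc38a8 on chromosome 8. The genes lie on opposite strands with their 3′ ends facing and 6962 bases between them. Necab2 had a mean of 491 ± 43.2 on day 3. It reached 1722 ± 192 in the GFP-positive gate of day 4 and 7028 ± 991 in that of day 5, where the GFP-negative gate held 1021 ± 98.2. It differed by 1.81 between day 3 and day 4 GFP-positive cells and by 2.78 between the day 5 gates, which is given without a test because Necab2 is named for its likeness to Slc38a8, a gene chosen on these contrasts. On day 0 Necab2 stood at 785 ± 183, above its mean of day 3.

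Neighbours of all members were looked at after the values were seen. Of the 20 nearest tested genes on either side, 4 passed both thresholds as higher and 2 as lower from day 3 to day 4 GFP-positive cells. Of all genes, 3.33% and 7.36% did so. The count of 4 is a description, since it includes Necab2, for which no test is given. The 4 were Necab2, Adamts19 (2.54) and Chsy3 (3.08) on the 2 sides of Minar2, and Atp8a2 (1.71), which follows Shisa2 and lost its call in 3 of 6 fits that left out a library of the contrast. The 2 lower were Asb10, next to Gbx1, with a difference of -2.09, and Gm20765, the nearest tested gene before Tmtc2, with -3.70 from 45.6 ± 14.4 on day 3 to 4.31 ± 5.35, which lost its call in 4 of 6 such fits. Both calls were also lost in a fit of only the groups compared. Arid3c overlaps Il11ra1 on the other strand, Lmo3 overlaps A830011K09Rik, Maf overlaps Gm15655, Tmtc2 overlaps Gm15663 and Edn1 overlaps Gm47118. Whether the counting used strand is not stated, so reads of each such pair may be mixed. The highest library of A830011K09Rik was 57, of Gm15663 76.3, of Gm15655 33.4 and of Gm47118 5.62, and of Il11ra1 604. The mean of Il11ra1 was 285 on day 3. In the day 4 gates it was 514 with GFP and 448 without, and in the day 5 gates 437 and 521. From day 3 to day 4 GFP-positive cells A830011K09Rik rose by 2.61 (limma adjusted p = 0.000345), from 2.46 ± 2.18 to 16.3 ± 3.39, and Gm15663 rose by 1.62 (limma adjusted p = 0.000225), from 19.8 ± 5.10 to 62.2 ± 12.2. These calls were lost in 4 and 2 of 6 fits that left out a library of the contrast and in a fit of only the groups compared.

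A list of 47 relatives, made of paralogues, ligands, receptors and partners of the 10 genes, showed how far the pattern extended to their families. From day 3 to day 4 GFP-positive cells, 7 of the 46 tested relatives were called higher and 2 lower, against 3.33% and 7.36% of all genes, with a median of 0.19 against -0.01. Between the day 4 gates none was called higher and 1 was lower, and between the day 5 gates none was higher and 4 were lower. Of all genes 0.328% and 0.400% were called higher between the gates, and 3.63% and 4.61% lower, so that no call in the higher direction among 46 genes is near the background. Nrl, the rod factor of the Maf family, had too little signal to be tested. In a fit of only the groups compared, the calls of Edn2, Mafa, Cntn1 and Tnc were lost (limma adjusted p = 0.00267, 0.00315, 0.00443 and 0.00817).

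Gbx2 ran opposite to Gbx1 between the gates. Gbx2 stood at 1612 ± 379 on day 0 and 68.5 ± 9.22 on day 3, and on day 4 at 520 ± 73.8 in GFP-negative and 27.3 ± 13.2 in GFP-positive cells. It was lower in the GFP-positive gate on day 4 (difference -4.32, SE 0.29, limma adjusted p = 1.01e-09) and on day 5 (difference -3.47, SE 0.29, limma adjusted p = 1.46e-08). Gbx1 was higher in the GFP-positive gate on both days, by the choice of the gene.

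In the endothelin family, the related ligand gene Edn2 fell over the step at which Edn1 was higher. Edn2 stood at 384 ± 5.63 on day 1 and 45.9 ± 14.4 on day 3, and fell to day 4 GFP-positive cells by 3.97 (SE 0.56, limma adjusted p = 7.57e-06). Its mean there was 2.90 ± 3.25, so that the size depends on the pseudocount, from -2.73 with 5 to -4.40 with 0.5. The call of Edn2 was lost in a fit of only the groups compared. The receptor gene Ednra rose over the same step by 1.79 (SE 0.23, limma adjusted p = 2.50e-06) and stood at 298 ± 25.5 in day 4 GFP-positive against 229 ± 16.2 in day 4 GFP-negative cells (difference 0.37, limma adjusted p = 0.347). On day 5 it stood at 301 ± 26.0 and 352 ± 46.0 (difference -0.22, limma adjusted p = 0.618), and neither gate difference was called. Ednrb, the other receptor, was lower in the GFP-positive gate of day 5 (difference -2.35, SE 0.32, limma adjusted p = 1.04e-05), at 51.6 ± 7.59 against 267 ± 32.8. Ece1, which encodes the enzyme that cleaves the precursor, was 0.28 higher in GFP-positive cells of day 4 than on day 3 (SE 0.30, limma adjusted p = 0.516).

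Among the partners of Ptprz1, its ligand gene Ptn and the cell adhesion gene Nrcam rose between day 3 and GFP-positive cells of day 4, by 3.59 (SE 0.47, limma adjusted p = 2.76e-06) and 2.49 (SE 0.27, limma adjusted p = 1.80e-07). The mean of Ptn on day 4 was 5769 ± 207 with GFP and 3551 ± 505 without, and on day 5 it was 7162 ± 1047 and 9125 ± 288. Neither gate difference of Ptn was called. Nrcam differed by 1.46 between the day 4 gates (SE 0.27, limma adjusted p = 0.000439), just under the size threshold. Cntn1, a contactin, rose by 1.66 with the call lost in 4 of 6 fits that left out a library of the contrast. The extracellular matrix gene Tnc was lower in the GFP-positive gate of day 5 (-2.77), at 7.82 ± 4.65 against 52.5 ± 7.55, and lost its call in 5 of 6 such fits.

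Single paralogues of Lmo3, Maf and Shisa2 passed the test in either direction. Lmo1 rose from day 3 to day 4 GFP-positive cells by 4.13 (SE 0.21, limma adjusted p = 2.22e-12), and its gate differences of 0.89 on day 4 and 1.29 on day 5 stayed under the size threshold. Lmo2, a gene of blood and vessel progenitors, was lower in the GFP-positive gate of day 5 (difference -1.98), at 99.8 ± 17.2 against 394 ± 31.3. Between day 3 and GFP-positive cells of day 4 Mafa rose by 1.78 and Maff fell by 1.69, and these calls were lost in 3 and 4 of 6 fits that left out a library of the contrast. Shisa4 rose by 1.55 over this step and lost its call without the third day 3 library.

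**Figure D4:**
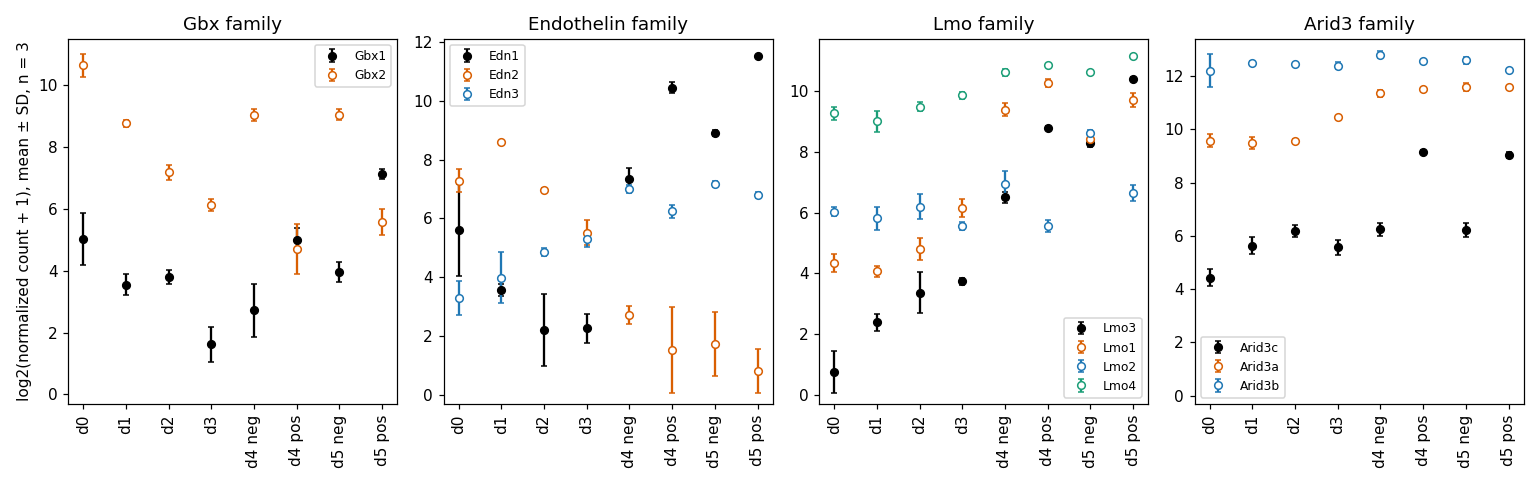
Group means ± SD (n = 3) of log2(normalized count + 1) on the vertical axis for members (filled) and paralogues (open) of 4 families, over the 8 groups on the horizontal axis. Gbx2 lies far below its GFP-negative level in GFP-positive cells where Gbx1 is highest on day 5, and Edn2 declines to near 0 while Edn1 reaches its highest level; heights are comparable within a gene and not between genes.

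Several paralogues were detected in every group, and none of those that follow was called between the gates. Arid3a was 2886 ± 74.6 in day 4 GFP-positive and 2605 ± 224 in day 4 GFP-negative cells, and Arid3b 6005 ± 94.9 and 7164 ± 721. Slc38a7, the closest listed transporter, differed by 0.08 between the gates on day 4 and on day 5 (SE 0.12, limma adjusted p = 0.744 and 0.765). Ptprg, the phosphatase most like Ptprz1, differed by -0.01 between the day 4 gates (SE 0.26, limma adjusted p = 0.988). Minar1 was highest on day 3, at 425 ± 88.0, and was 174 ± 2.11 in day 4 GFP-positive cells.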

How the data were processed

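RNA-seq libraries of polyadenylated RNA were made with the TruSeq kit from 24 samples of OV organoids, in the 8 groups of 3 replicates that the sample labels give. The authors pseudo-aligned reads with kallisto 0.43.1 to mouse transcripts (mm10) and deposited gene values divided by DESeq2 size factors, a normalized signal called normalized count here. Strandedness and the handling of shared reads are not given in the sources used here. Whole reads could not be recovered, so no count model was run. The deposited table also holds the authors' own gene calls, which were not used. All value columns were assigned to a sample (0 unassigned).

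Values were transformed as log2(value + 1), and 21005 of 49705 entries with at least 10 in at least 3 libraries were fitted together in limma 3.58.1 (R 4.3.3) with eBayes and a trend, one model for all 24 libraries. P-values were adjusted by the Benjamini-Hochberg method over all entries tested, within each contrast. Genes with adjusted p < 0.001 and a log2 difference beyond 1.5 in either direction were called. The depth, an estimated 37100000 to 54500000 reads per library, limits genes at a few reads. The procedure was tested on simulated data. Figures were drawn with matplotlib 3.10.9 in Python 3.11.15.

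The 10 genes, the lists of relatives and markers, and the tests were chosen with earlier results of these data known. Named besides the 10 are relatives called in at least 1 contrast (at most 10, by size of difference), Maff, Cntn1 and Shisa4 beyond these 10, which were added after the values were seen, and the closest tested relative of a gene, the 3 most correlated genes of each member without predicted or antisense genes, and 5 eye-field genes. Some genes that meet this rule for likeness are not reported here. The comparison of day 0 with day 3 and the neighbours on the chromosome were added after the values were seen, as were some uncalled relatives. A planned test that set the gates of day 5 against those of day 4 is not given, because it is built from the values that chose the genes. The step from day 3 to day 4 GFP-negative cells is built from such values as well, and its tests are given with that limit. The paper describes sorting of the samples of days 4 and 5 into both gates, so the gates of a day may share organoids. Deviations of same-numbered replicates had a mean r of -0.0005 over 84 pairs, from -0.284 to 0.401. Between the gates the mean r was -0.06 on day 4 and 0.03 on day 5. Same-numbered replicates were not treated as paired in the main fit. As alternatives, the fit was repeated with pseudocounts of 0.5 and 5, without a filter or with one of 50, quantile normalization, eBayes without a trend, only the groups compared, a replicate block, an adjusted p under 0.05 with no minimum difference, and leaving out each library. ATAC-seq and other assays of the study were not analysed here.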

Additional observations from a re-analysis of the deposited data

How the results depend on the processing

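Of 1199 recomputed single-gene values for 87 results, 1 reversed, 1115 kept their side of the threshold or moved by less than the replicate spread, 69 lost a call, 9 gained one and 5 differences without a test moved by more than the replicate spread. The reversal was the step of Shisa2 in GFP-positive cells from day 4 to day 5, which was -0.0472 without the third day 5 GFP-positive library and between -0.0472 and 0.1181 over all libraries left out. Over all tested member differences, printed or not, 21 values of 11 results changed sign, each at most 0.54 in size with all libraries and with adjusted p of at least 0.311. With a pseudocount of 0.5, the members called were 1 from day 0 to day 1 and 1 in GFP-negative cells from day 4 to day 5. With a pseudocount of 5, they were 3 in GFP-positive cells from day 4 to day 5. Without a filter, 1 was called in GFP-negative cells from day 4 to day 5. Quantile normalization left 1 in GFP-negative cells and shifted the median of all genes by at most 0.08. A fit of only the groups compared gave 1 from day 2 to day 3, 0 from day 0 to day 3 and 1 in GFP-negative cells, and with few residual libraries this setting has less power by construction. An adjusted p under 0.05 with no minimum difference gave 6, 1, 8 and 4 members from day 0 to day 1, day 1 to day 2, day 0 to day 3 and GFP-positive day 4 to day 5, where 10.0%, 16.6%, 43.6% and 9.80% of all genes passed. It gave 25, 11 and 17 of 46 relatives from day 3 to day 4 GFP-positive cells and between the day 4 and day 5 gates, where 37.9%, 15.7% and 16.0% of all genes passed. For the other settings that changed a count the cause was not tested. The replicate block, with the replicate number as a pairing term, changed no count of members or relatives by more than 1.5 times. Leaving out 1 library gave 0 to 1 members from day 0 to day 1, 1 to 2 in GFP-negative cells and 1 to 3 in GFP-positive cells from day 4 to day 5, and 1 to 2 relatives between the day 4 gates, with 2 without the first day 4 GFP-negative library. The highest counts of members were reached without the first day 0 library.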
